A study of Mus musculus with 2 samples.

Results

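Cohesin is the ring-shaped protein complex that holds sister chromatids together and folds chromosomes into loops, and Ctcf is the zinc finger protein at which many of these loops stop. The genes described here are *Ctcf*, the ring subunits *Smc1a*, *Smc3*, *Rad21*, *Stag1* and *Stag2*, the loader *Nipbl*, and the release factors *Wapl*, *Pds5a* and *Pds5b*. They were chosen by name, and the RefSeq transcripts of each were found through a RefSeq gene table, which gave 12 protein-coding transcripts of 10 genes among 26968 transcripts of 20246 genes. RNA-seq was measured in 1 library of *Ebf1* -/- pre-pro-B cells and 1 library of *Rag2* -/- pro-B cells, both of C57BL/6 background. The pre-pro-B cells came from livers of female embryos and were grown with Il-7, Scf and Flt3l. The pro-B cells came from bone marrow of adult males and were grown with Il-7 alone, and both cultures were kept on OP-9 stromal cells. Stage therefore cannot be told apart from genotype, sex, age, tissue and cytokines, and with 1 library per cell type no difference below has a replicate check or a test.

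The ring is closed around DNA by Smc1a, Smc3 and Rad21, and a Stag protein binds to Rad21. Nipbl loads the ring and drives loop extrusion, while Wapl, together with a Pds5 protein, opens it again. In developing B cells, loops of this kind bring distant gene segments of the immunoglobulin heavy chain locus close to the recombination centre, and Ctcf sites within the locus shape them. Each level is given in FPKM, a fragment count that the authors estimated for each RefSeq transcript and divided by its length and by the size of the library, so that genes within a library can be compared. A gene's level is the sum over its protein-coding transcripts, and a ratio is always the pro-B level divided by the pre-pro-B level, with no pseudocount added.

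The libraries carried the markers of their labels. All 8 B lineage markers examined were higher by 2-fold or more in the pro-B library, with a summed FPKM of 31.2 in the pre-pro-B and 2111 in the pro-B library, and the progenitor genes *Kit*, *Flt3* and *Cd34* summed to 944 and 2.82 FPKM in the same order. The targeted genes were not at 0 in their own null cells, with *Ebf1* at 64.0 and 273 FPKM and *Rag2* at 34.5 and 22.9 FPKM, and levels over whole transcripts do not single out a deleted part. Of 10 stromal genes, 6 of the 7 above 0 in both libraries were higher by 2-fold or more in the pro-B library, at no more than 5.16 FPKM. The list summed to 19.5 FPKM in the pre-pro-B library, of which *Pdgfrb* made up 15.9 FPKM, and to 13.9 FPKM in the pro-B library. *Dcn* and *Postn* were listed at 0 in both libraries, and *Lum* at 0 in the pre-pro-B and 0.0801 FPKM in the pro-B library. The T lineage markers summed to 75.4 and 3.13 FPKM and the myeloid markers to 61.0 and 6.52 FPKM, with *Elane* listed at 0 in both. The markers within each list differed. In the pre-pro-B library *Cd3g* and *Lck* made up nearly all of the T lineage sum, with *Cd3e* at 0.239 and *Cd8a* at 0.322 FPKM. *Mpo* and *Itgam* made up most of the myeloid sum there, with *Csf1r* at 0.170 FPKM. Whether the stromal, T lineage and myeloid values came from other cell types or from the labelled cells themselves was not tested. The part of any other cell types in the values below was not tested either.

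Every one of the 10 genes was expressed in both libraries and had the higher FPKM in pro-B cells, with fold differences between 1.17 for *Smc3* and 2.49 for *Rad21*. Among all 12072 genes above 0 in both libraries, 44.8% were higher in pro-B cells, and among the 4954 genes at 10 FPKM or more in both it was 49.1%. Only *Rad21* passed 2-fold, so that 1 of 10 genes was higher by 2-fold or more, against 17.2% of all genes and 8.90% of those at 10 FPKM or more in both libraries. None of the 10 was lower by 2-fold or more, against 22.1% of all genes and 6.60% of those at 10 FPKM or more. Since all 10 genes stood above 10 FPKM in both libraries, their counts past 2-fold were near the share of genes of that level in either direction. The median log2 ratio of the 10 genes was 0.55, a 1.47-fold difference. The median was -0.12 over all genes and -0.014 over those at 10 FPKM or more in both libraries. Summed over the 10 genes the level was 748 FPKM in the pre-pro-B library and 1141 FPKM in the pro-B library. In bulk RNA, a larger share of cells that express a gene and more RNA per cell cannot be told apart.

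**Figure D1:**
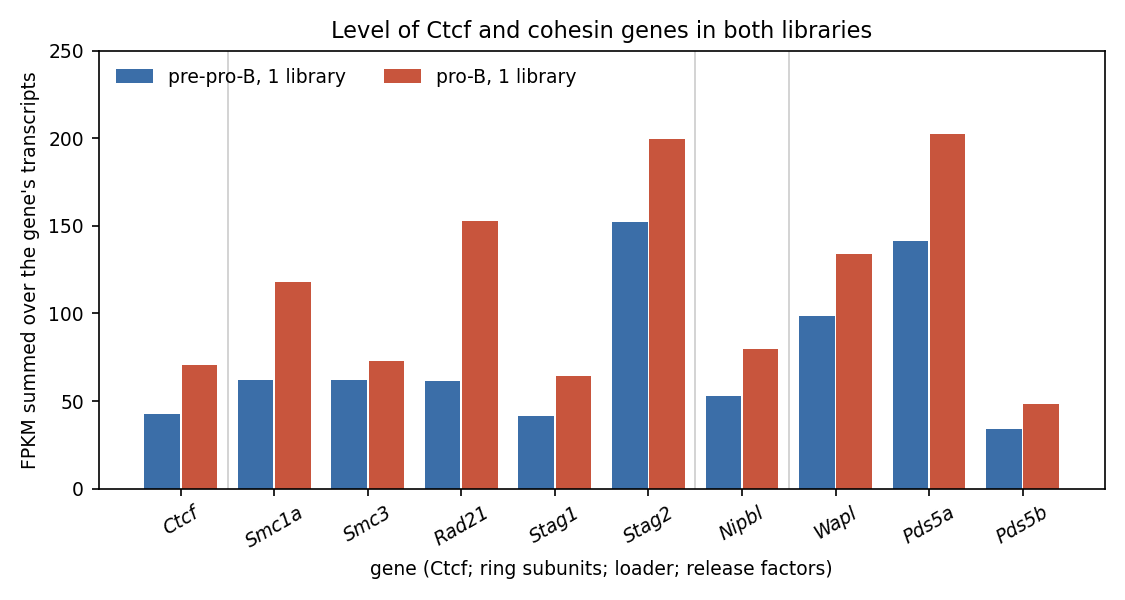
Summed FPKM of *Ctcf* and the 9 cohesin genes, grouped by role, in the pre-pro-B library (blue bars) and the pro-B library (red bars), 1 library each and hence without error bars. Each red bar stands above its blue neighbour, by 1.17-fold for *Smc3* and by 2.49-fold for *Rad21*.

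All 10 genes belonged to the upper part of the expressed genes. The lowest of them, *Pds5b*, lay above 82.9% of the genes with an FPKM above 0 in the pre-pro-B library and above 88.3% of those in the pro-B library, where the medians of all such genes were 7.94 and 7.43 FPKM. From the highest to the lowest level, the pre-pro-B order was *Stag2*, *Pds5a*, *Wapl*, *Smc3*, *Smc1a*, *Rad21*, *Nipbl*, *Ctcf*, *Stag1* and *Pds5b*, spanning 4.48-fold. In the pro-B library the order was *Pds5a*, *Stag2*, *Rad21*, *Wapl*, *Smc1a*, *Nipbl*, *Smc3*, *Ctcf*, *Stag1* and *Pds5b*, spanning 4.19-fold. *Rad21* moved from rank 6 to rank 3 and *Smc3* from rank 4 to rank 7. The intervals of neighbours in these orders, given with each transcript, overlapped.

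The intervals come from Cuffdiff's model, run without replicates, and mark the 95% confidence limits of each transcript's FPKM. They are not a spread between replicates. They were wide. Their upper limits stood between 1.79 and 5.79 times the FPKM, and the intervals of the libraries overlapped for all 12 transcripts, *Rad21* included. Separate intervals were rare in general, at 3.14% of the 15073 protein-coding transcripts above 0 in both libraries. At the nominal 90000000 reads per library that the labels state, the FPKM of the 12 transcripts would correspond to about 3449 to 100380 fragments each. This takes every read as aligned and is therefore an upper estimate, and the deposited FPKM tables hold no read count for a transcript.

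**Figure D2:**
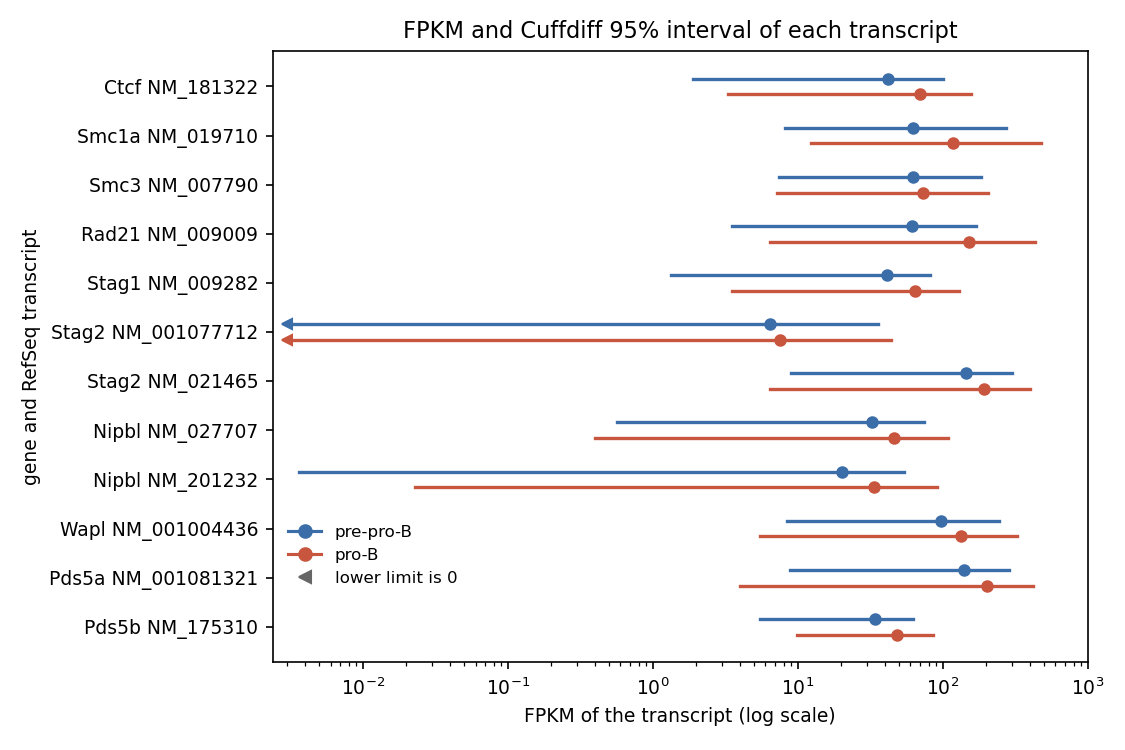
FPKM (points) and Cuffdiff's 95% interval (lines) of each of the 12 transcripts on a log axis, pre-pro-B in blue and pro-B in red, with a triangle where the lower limit is 0. The blue and red lines overlap in every row, and the 2 rows of *Nipbl* and the *Stag2* row NM_001077712 reach lowest.

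Promoter sequences are shown here as a description, and whether they bear on the shared direction of the 10 genes was not tested. A RefSeq promoter table on build GRCm38.p6 held a window for 7 of the 10 genes and none for *Rad21*, *Stag2* and *Nipbl*. The 250 bases before the transcription start are printed 5′ to 3′ for *Ctcf*, for *Smc1a* and *Smc3*, the ring subunits with the largest and the smallest difference among those with a window, and for *Pds5a*, the gene with the highest pro-B level. Capitals mark the letters searched on both strands. These were CCAAT for the box of that name, TTTGAA for the cell cycle homology region, GGGCGG for the GC box, and for the E2F site either TTGGCGC or the form TTCCCGC.
Ctcf, chr8:105636288-105636537, plus strand: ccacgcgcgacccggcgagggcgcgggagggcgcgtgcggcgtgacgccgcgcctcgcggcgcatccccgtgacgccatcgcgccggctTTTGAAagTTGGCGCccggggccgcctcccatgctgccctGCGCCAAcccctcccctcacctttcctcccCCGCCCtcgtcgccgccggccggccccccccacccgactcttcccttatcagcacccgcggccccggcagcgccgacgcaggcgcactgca
Smc1a, chrX:152016178-152016427, plus strand: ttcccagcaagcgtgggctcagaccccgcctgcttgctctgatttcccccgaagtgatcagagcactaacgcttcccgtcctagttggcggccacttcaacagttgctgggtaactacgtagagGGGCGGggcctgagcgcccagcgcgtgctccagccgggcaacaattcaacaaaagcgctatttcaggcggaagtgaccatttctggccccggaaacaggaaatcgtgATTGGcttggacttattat
Smc3, chr19:53600146-53600395, plus strand: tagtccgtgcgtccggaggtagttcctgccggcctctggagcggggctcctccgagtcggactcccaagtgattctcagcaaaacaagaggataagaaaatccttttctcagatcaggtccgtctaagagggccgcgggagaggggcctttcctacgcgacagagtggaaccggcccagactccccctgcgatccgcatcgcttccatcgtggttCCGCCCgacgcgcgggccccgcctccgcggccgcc
Pds5a, chr5:65698237-65698486, minus strand: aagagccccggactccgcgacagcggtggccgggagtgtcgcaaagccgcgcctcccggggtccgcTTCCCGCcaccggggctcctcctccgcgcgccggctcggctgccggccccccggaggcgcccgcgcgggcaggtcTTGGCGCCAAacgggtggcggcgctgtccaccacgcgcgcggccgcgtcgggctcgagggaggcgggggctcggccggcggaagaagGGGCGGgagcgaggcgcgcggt

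GGGCGG was found in 7 of 7 windows, against 32.7% of all 32851 windows of the same length. The windows were rich in CpG, with 16 of them in *Smc1a* and 44 in *Pds5a* as the extremes, against a median of 6 over all windows. Only 25.4% of all windows held 16 CpG or more. Their GC content was 56.8% to 80.4% in the 7 genes, against a median of 52.4% over all windows. The shares over all windows given here are thus not matched for CpG, GC content or expression, and an excess beside them was not tested. TTGGCGC was found in 3 of 7 windows, those of *Ctcf*, *Pds5a* and *Pds5b*, against 1.97% of all windows, and TTCCCGC in those of *Pds5a* and *Stag1*, against 3.82%. In *Pds5a* the matches of TTGGCGC on the opposite strands overlap each other, and a CCAAT on the opposite strand can share bases with TTGGCGC. The letters CCAAT occurred in 4 of 7 windows against 33.8%, and TTTGAA in 2 of 7, those of *Ctcf* and *Pds5b*, against 16%. A match of letters is a description and not a site of binding.

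*Ctcf* (NM_181322, chromosome 8 of mm9, 108160438 to 108206822, plus strand) encodes the DNA-binding protein that halts loop extrusion. Its level was 42.3 FPKM (interval 1.90 to 101) in the pre-pro-B library and 70.3 FPKM (3.32 to 157) in the pro-B library. The pro-B level was 1.66-fold higher, a log2 ratio of 0.73. This ratio exceeded those of 78.4% of all genes above 0 in both libraries. *Ctcf* was lower than most of its cohesin partners, standing at rank 8 of 10 in both libraries. Its level was 0.691 times that of *Rad21* in the pre-pro-B library and 0.461 times in the pro-B library. The genes with the most similar pair of levels, by distance in the plane of the log2 FPKM of both libraries, were *Aimp1* (43.9 and 73.0 FPKM), *Snrnp200* (44.3 and 73.1 FPKM) and *Arl6ip6* (40.7 and 74.4 FPKM). These distances, from 0.076 to 0.10, rest on 2 libraries.

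**Figure D3:**
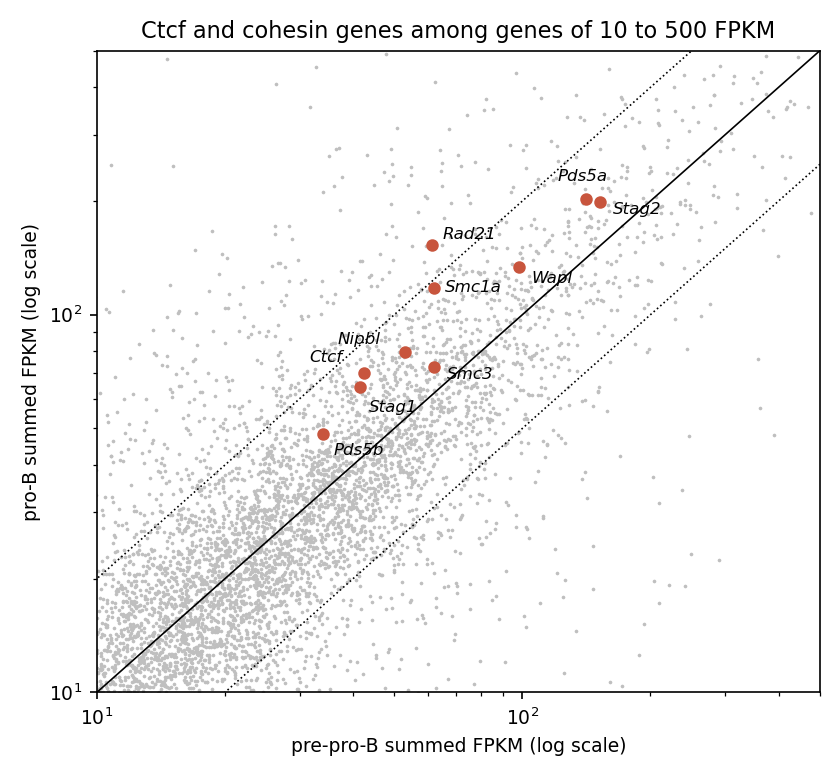
Summed FPKM in the pre-pro-B library (x axis) and the pro-B library (y axis), both on log axes, for *Ctcf* and the cohesin genes (red) among the other genes in this range (grey). The solid line marks equal levels and the dotted lines 2-fold differences. All 10 red points lie above the solid line, and *Rad21* alone lies beyond the upper dotted line.

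*Smc1a*, *Smc3* and *Rad21*, whose products stand in equal number in the complex, had nearly equal levels in the pre-pro-B library and less equal ones in the pro-B library. *Smc3* (NM_007790, chromosome 19, 53674886 to 53720321, plus strand) encodes the SMC subunit whose acetylation locks the ring. Its level was 62.1 FPKM (interval 7.45 to 183) in the pre-pro-B and 72.9 FPKM (7.18 to 205) in the pro-B library, a ratio of 1.17. *Smc1a* (NM_019710, chromosome X, 148450971 to 148496516, plus strand), the partner of Smc3 in the ring, stood at 62.0 FPKM (interval 8.20 to 273) and 118 FPKM (12.3 to 476), a ratio of 1.90. That is just under 2-fold, which median-ratio scaling between the libraries carried to a log2 ratio of 1.05. The log2 ratio of 0.92 exceeded those of 81.8% of all genes above 0 in both libraries.

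*Rad21* (NM_009009, chromosome 15, 51794150 to 51823306, minus strand) encodes the kleisin that bridges the heads of the SMC proteins and is cut by separase at anaphase. Its level was 61.3 FPKM (interval 3.52 to 170) in the pre-pro-B library and 153 FPKM (6.48 to 436) in the pro-B library. This 2.49-fold difference, a log2 ratio of 1.32, was the largest of the 10 genes. It exceeded the ratios of 86.7% of all genes above 0 in both libraries. Relative to *Smc3*, *Rad21* stood at 0.987 in the pre-pro-B library and at 2.09 in the pro-B library, and *Smc1a* at 0.999 and 1.61. The intervals of all 3 genes overlapped one another within each library.

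Other places in the genome that resemble these transcripts could take up or lend reads, since up to 20 alignments per read were allowed. An alignment of the mm9 gene models found none for *Ctcf*, *Smc1a*, *Stag1*, *Stag2*, *Nipbl*, *Wapl* and *Pds5b*. For *Rad21* there was a copy of 2660 bases on chromosome 5 (109665881 to 109668655) with 84.1% identity, and a piece of 285 bases on chromosome 1. For *Smc3* there were shorter pieces with higher identity, of 988 bases on chromosome 7 (95%), 528 bases on chromosome 11 (95.7%) and 453 bases on chromosome 17 (97.4%). *Pds5a* matched its paralog *Pds5b*, over 3059 bases, and no place else. Identity was counted over the whole alignment with its gaps, which gave 20.3% for this match. That value is therefore not the identity of the aligned bases alone. The search with *Pds5b* did not return *Pds5a*. The part of these copies in the FPKM was not tested.

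*Stag2* and *Stag1* encode alternative subunits that replace each other in the ring. *Stag2* (chromosome X, 39502589 to 39630352, plus strand) was the more abundant, with a summed level of 152 FPKM in the pre-pro-B and 199 FPKM in the pro-B library, a ratio of 1.31. *Stag1* (NM_009282, chromosome 9, 100544042 to 100858963, plus strand) stood at 41.6 FPKM (interval 1.35 to 82.2) and 64.4 FPKM (3.52 to 129), a ratio of 1.55. *Stag2* thus made up 78.5% of the summed level of the pair in the pre-pro-B library and 75.6% in the pro-B library. The log2 of the *Stag2* to *Stag1* ratio differed by -0.24 between the libraries (pro-B minus pre-pro-B), and the intervals of both genes overlapped between them.

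Nearly all of the *Stag2* level came from NM_021465, with 146 FPKM (interval 8.96 to 302) in the pre-pro-B library and 192 FPKM (6.41 to 403) in the pro-B library. The other row, NM_001077712, had 6.44 FPKM (0 to 35.7) and 7.55 FPKM (0 to 43.7), which is 4.22% and 3.79% of the gene. These rows are 5815 and 5955 bases long. The difference of 140 bases equals that between the first exons, of 134 and 274 bases, of the *Stag2* models closest to them in length in the mm9 annotation, which share all 31 internal exons. The tables do not tie these rows to those models.

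*Nipbl* (chromosome 15, 8241225 to 8394463, minus strand), which loads cohesin and keeps it moving, had a summed level of 52.9 FPKM in the pre-pro-B and 79.7 FPKM in the pro-B library, a ratio of 1.51. It is the gene whose transcripts shared the level most evenly. NM_027707, of 8815 bases, stood at 32.8 FPKM (interval 0.565 to 74.1) and 46.4 FPKM (0.398 to 108), or 62.0% and 58.1% of the gene. NM_201232, of 8599 bases, stood at 20.1 FPKM (0.00364 to 54.0) and 33.4 FPKM (0.0228 to 91.6). Both transcripts were higher in the pro-B library, with overlapping intervals.

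The release factors were all higher in the pro-B library. *Wapl* (NM_001004436, chromosome 14, 35487114 to 35559403, plus strand, named *Wapal* in the mm9 annotation) opens the ring between Smc3 and Rad21. Its level was 98.3 FPKM (interval 8.41 to 246) in the pre-pro-B and 134 FPKM (5.498 to 328) in the pro-B library, a ratio of 1.36. It exceeded the level of its opponent *Nipbl* 1.86-fold in the pre-pro-B and 1.68-fold in the pro-B library.

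*Pds5a* and *Pds5b* encode paralogous proteins that bind the ring beside Wapl and also help to keep it closed once Smc3 is acetylated. *Pds5a* (NM_001081321, chromosome 5, 66006499 to 66089095, minus strand) stood at 141 FPKM (interval 8.82 to 286) and 202 FPKM (3.99 to 423), a ratio of 1.43. *Pds5b* (NM_175310, chromosome 5, 151476402 to 151613245, plus strand) stood at 34.0 FPKM (5.51 to 62.6) and 48.2 FPKM (9.96 to 86.4), a ratio of 1.42. The levels of the pair had a ratio of 4.16 in the pre-pro-B and 4.19 in the pro-B library, the smallest difference among 7 such ratios computed between pairs of these genes. Log2 ratios of the 3 release factors lay between 0.45 and 0.52, and those of the 5 ring subunits between 0.23 and 1.32.

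Lengths of the gene models bear on these levels, since an FPKM is scaled to the model. The mm9 annotation holds a *Smc1a* model 721 bases longer and a *Wapl* model 1766 bases longer than the rows used for the FPKM, both with a later end. For *Smc3* and *Pds5a* the lengths were equal, and for *Rad21* they differed by 1 base. Longer models were also annotated for *Stag1*, *Stag2* and *Pds5b*, by 108 to 356 bases. Comparisons of these genes, *Smc1a* or *Wapl* with other genes rest on the shorter models. The ratio between the libraries uses the same model in both.

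Of the 10 genes, *Smc1a* and *Stag2* lie on the X chromosome, and the pre-pro-B cells were female and the pro-B cells male. Genes on X had a median log2 ratio of 0.11 over 382 genes above 0 in both libraries, and autosomal genes one of -0.13 over 11686 genes. The log2 ratios of *Smc1a* (0.92) and *Stag2* (0.39) were both above the X median. Sex cannot be told apart from stage in these libraries.

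Enzymes, inhibitors and other factors that act on cohesin through the cell cycle were examined as a list. Of 12 regulators, 10 were higher by 2-fold or more in the pro-B library and none was lower by that much. Among all genes above 0 in both libraries, 17.2% were higher and 22.1% lower by that much. The median log2 ratio of the 12 regulators was 1.63. *Pttg1*, the securin that holds separase inactive, stood at 15.1 FPKM in the pre-pro-B and 248 FPKM in the pro-B library, a log2 ratio of 4.04. *Esco2*, which acetylates Smc3 during DNA replication, stood at 10.7 and 102 FPKM, a log2 ratio of 3.25. Only *Mau2*, the partner of Nipbl in the loader, was lower in pro-B cells, at 28.1 and 18.8 FPKM (log2 ratio -0.58).

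Some further regulators are named for their roles, after their values were seen. *Cdca5*, which encodes sororin and counters Wapl, stood at 9.89 and 32.4 FPKM. *Espl1*, the separase that cuts Rad21, stood at 3.05 and 8.68 FPKM, and *Sgo1*, which protects cohesin at centromeres, at 9.46 and 43.8 FPKM. *Esco1*, the acetyltransferase active outside of replication, was nearly level at 35.9 and 36.3 FPKM. *Esco1* was thus more abundant than *Esco2* in the pre-pro-B library and less abundant in the pro-B library.

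The related SMC complexes stood apart from each other. All 8 condensin genes, whose products compact mitotic chromosomes, were higher by 2-fold or more in the pro-B library. The share among all genes above 0 in both libraries was 17.2%. The median log2 ratio of the condensin genes was 1.65. The largest were *Ncaph* (15.5 and 101 FPKM) and *Ncapg* (20.4 and 104 FPKM), and *Ncaph2* was at the threshold with a log2 ratio of 1.00, so that 7 of the 8 passed it under some alternatives, among them TPM scaling. None of the 7 genes of the SMC5/6 complex, which acts in DNA repair, passed 2-fold in either direction. Among all genes above 0 in both libraries, 17.2% passed it upward and 22.1% downward. The median log2 ratio of the SMC5/6 genes was 0.18. *Smc6* (39.8 and 64.9 FPKM) and *Nsmce4a* (64.4 and 102 FPKM) had the highest ratios, while *Nsmce1* (57.2 and 41.7 FPKM) and *Eid3* (3.76 and 3.50 FPKM) were lower in the pro-B library, the last of them only without median-ratio scaling. The median of the cohesin and *Ctcf* genes, 0.55, lay between the medians of these complexes. Their log2 ratios, from 0.23 to 1.32, overlapped both those of SMC5/6 (-0.45 to 0.70) and those of condensin (1.00 to 2.70).

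**Figure D4:**
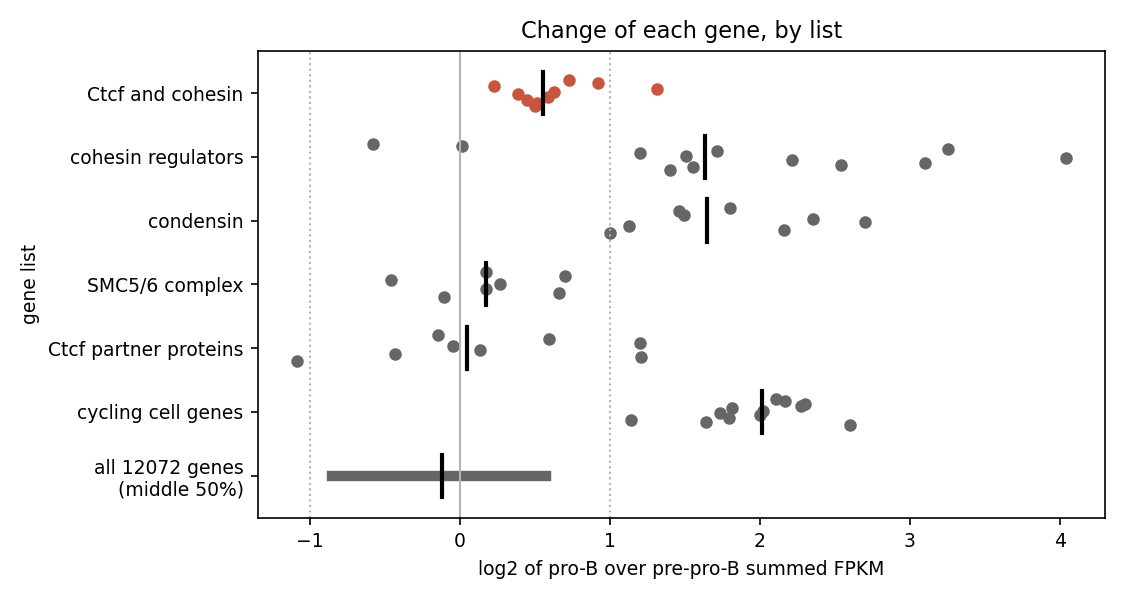
Log2 ratio of summed FPKM (pro-B divided by pre-pro-B) for each gene (points) of 6 lists, with the median of each list (black bars), and the middle 50% of all 12072 genes above 0 in both libraries (grey bar). Dotted lines mark 2-fold. The median of the cohesin and *Ctcf* genes, 0.55, lies between those of the SMC5/6 genes, 0.18, and the condensin genes, 1.65, with overlapping ranges. All 12 cycling cell genes lie beyond 2-fold.

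Genes of cycling cells were higher in the pro-B library, as were the condensin genes and most of the cohesin regulators. All 12 of them were higher by 2-fold or more in the pro-B library, against 17.2% of all genes above 0 in both libraries. Examples are *Mki67* (81.1 and 349 FPKM) and *Top2a* (138 and 622 FPKM). The 12 genes summed to 529 FPKM in the pre-pro-B and 2200 FPKM in the pro-B library. Their log2 ratios ranged from 1.14 to 2.60. The log2 ratio of *Rad21*, 1.32, lay within that range, and those of the other 9 members lay below it. The part of the cell cycle in the differences of the cohesin genes was not tested.

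Proteins that share sites or complexes with Ctcf showed no common direction. Of 8 such genes, 2 were higher by 2-fold or more in the pro-B library and 1 was lower by that much. Among all genes above 0 in both libraries, 17.2% were higher and 22.1% lower by that much. The median log2 ratio of the 8 genes was 0.047, which turned negative under TPM scaling and with the most abundant transcript of each gene. The higher ones were *Nucks1* (121 and 280 FPKM) and *Maz*, a zinc finger factor (11.8 and 27.1 FPKM). *Brd2*, a bromodomain protein, was lower (21.0 and 9.90 FPKM), and *Chd8*, a chromatin remodeler that binds Ctcf, stood at 34.4 and 25.5 FPKM.

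Germline forms of the complex were examined for comparison. *Smc1b*, *Rec8*, *Rad21l* and the *Ctcf* paralog *Ctcfl* were listed at 0 in both libraries. *Stag3*, the meiotic counterpart of *Stag1* and *Stag2*, stood at 3.51 FPKM in the pre-pro-B library and 0.0550 FPKM in the pro-B library. Its direction was the opposite of that of *Stag1* and *Stag2*.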

How the data were processed

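RNA depleted of ribosomal and small RNAs was sequenced in 1 strand-specific library per cell type, at a nominal 90000000 single-end 97 bp reads. The authors trimmed the reads, aligned them to mm9 with TopHat (up to 20 alignments per read) and estimated the deposited FPKM and their 95% limits for RefSeq transcripts with Cuffdiff 2.1.1, with multi-read and bias correction and no scaling between libraries. The fold changes, p-values and q-values in the second deposited table are the authors' comparisons and were not used.

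Accessions were matched to gene names of a RefSeq table (GRCm38.p6), which named 26169 of 26580 protein-coding accessions. FPKM were summed per gene, and a gene above 0 in both libraries was counted at a 2-fold difference. Counts of fragments are not part of the deposited values. Coordinates are those of mm9 unless GRCm38.p6 is named. Gene models were those of GENCODE vM1, and their copies in the genome were sought with minimap2 2.31-r1302. Python 3.11.15, numpy 2.4.6, pandas 2.3.3 and matplotlib 3.10.9 were used. The counting code was run on simulated data with large planted changes and little noise. This checks the code and not the 2-fold counts in these libraries.

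The genes and lists were chosen with earlier results of these data known. For lists other than the marker lists, the text names up to 2 genes with the largest rise and 2 with the largest fall. Only genes at 1 FPKM or more in a library were ranked. Genes listed at 0 in 1 library or in both are also named. Marker lists, that of cycling cells included, are given by sums, with examples chosen after their values were seen. The alternatives were other pseudocounts, a filter, scalings, transcript summaries and the FPKM of the second table.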

Additional observations from a re-analysis of the deposited data

How the results depend on the processing

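All 10 genes were higher in pro-B cells under each of the 9 alternatives (pseudocounts of 0.1 and 1, an FPKM of at least 1 in both libraries, TPM and median-ratio scaling, the most abundant transcript, no duplicated rows, added non-coding rows, and the values of the second table). TPM scaling moved the median log2 ratio of all genes from -0.12 to -0.24, and median-ratio scaling moved it to 0. Each shifts every gene alike, so that *Eid3* turned positive under the latter and *Esco1* negative under the former. Under median-ratio scaling *Smc1a* passed 2-fold with a log2 ratio of 1.05, so that 2 of the 10 genes did. The median log2 ratio of the Ctcf partner proteins was -0.074 under TPM scaling and -0.0027 with the most abundant transcript, against 0.047 as reported. The number of condensin genes past 2-fold was 7 in place of 8 with either pseudocount, under TPM scaling and with added non-coding rows. Among all genes, 2073 of 12072 (17.2%) were past 2-fold toward the pro-B library. This became 1284 of 14391 (8.92%) with a pseudocount of 1 and 1047 of 8850 (11.8%) with the filter on low FPKM. In the other direction, 2662 of 12072 (22.1%) became 1211 of 8850 (13.7%) with that filter. No paired analysis was possible because each cell type has 1 library, and for the same reason no library could be left out. Precision is limited by the single library per cell type and by the width of the intervals of Cuffdiff's model.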
